A study of Rattus norvegicus with 15 samples.

Results

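Histone genes in H9c2 cells were examined across 5 groups of 3 RNA-seq libraries. Genes were taken by symbol, as every entry of the expression table whose name follows the Hist, H1f, H2af, H2ax, H2az, H3f3, H2ac, H2bc, H3c, H4c or H4f patterns. Of 19344 deposited entries, 28 carried such a name, under 27 symbols. A level of 1 FPKM (fragments per kilobase of transcript, scaled to the size of the library) in 3 or more libraries was required, which 15 entries under 14 symbols met. The other 13 entries are named at the end with their levels. H9c2 is a dividing myoblast line from embryonic rat heart.

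The groups were as follows. DSI+DOX cells received 50 µL of danshen injection at a 1 in 20 dilution and, 4 h later, 2 µM doxorubicin. AXT+DOX cells received 5 µM astaxanthin and DMT+DOX cells 10 µM diosmetin, each 4 h before the same doxorubicin dose. DOX cells received 2 µM doxorubicin alone, and all doxorubicin groups were harvested 24 h after it. The con cells received PBS, and their labels give the genotype as WT. No addition was given without doxorubicin. The labels do not say whether the 3 libraries of a group came from separate cultures, so p-values measure the spread between these libraries, which may be technical.

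Histones package DNA: H2A, H2B, H3 and H4 form the core of the nucleosome, and linker histones of the H1 family bind the DNA between cores. Replication-dependent histone genes lie in clusters, mostly lack introns, and are transcribed mainly in S phase to supply new chromatin. Their mRNAs usually end in a stem-loop bound by SLBP in place of a poly(A) tail, although dividing and differentiated cells also make polyadenylated forms of some of them. Replacement histones such as H3.3 and H2A.Z are made through the whole cell cycle from polyadenylated mRNAs and are exchanged into chromatin outside replication. H2A.X, whose gene makes both kinds of mRNA, is phosphorylated around DNA double-strand breaks. Doxorubicin slips between the bases of DNA and holds topoisomerase II at the breaks it makes.

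How the RNA was selected (poly(A) capture or removal of ribosomal RNA) is not given in the sources used here. Since stem-loop mRNAs escape poly(A) capture, the level of a replication-dependent gene below may be that of all its mRNA or of its polyadenylated form, and the values cannot tell these apart. Read depth is unknown too, so no counting interval is given. DSI+DOX replicate 3 stood apart from the rest. Its FPKM summed to 548227, against 433383 to 468608 in the 14 other libraries, and it correlated with the other DSI+DOX libraries at r = 0.953 and 0.963 across entries, against at least 0.991 within each other group. Among defining markers, the myoblast gene Myod1 stood at 16.4 to 31.1 FPKM and the cardiac genes Nkx2-5 and Gata4 at 3.25 to 8.33 FPKM over the 15 libraries. Tnnt2, of the cardiac troponin complex, stood at 57.5 to 213 FPKM. Myh6, Tnni3, Ryr2 and Nppa, which mark differentiated cardiomyocytes, did not pass 0.321 FPKM in any library, and the cardiac actin gene Actc1 did not pass 1.35 FPKM.

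The upstream DNA is given for some of the genes the results turn on. Each sequence is the 250 bases before the annotated start in RefSeq on build GRCr8, given 5′ to 3′ on the gene's own strand. The files were made on build Rnor_6.0, so genes were matched by symbol or listed synonym, and all 27 symbols matched. Capitals mark matches on either strand, merged where they overlap. The letters searched were CCAAT (the CCAAT box), TATAAA (the TATA box) and AAACACA (the H1 box of linker histone genes). ATTTGCAT, the octamer of H2B promoters, and the E2F-type letters TTTCGCGC and TTTGGCGC were searched as well. H1f2 and H1f4, linker histone genes of the same cluster, are shown as a pair because their RNA behaved differently. H2ac20 is shown because it is a divergent neighbour of Hist2h2be. Hist2h2aa2 is shown as the replication-dependent core histone gene with the highest level, and H3f3b as a replacement gene.
H1f2 (chr17:41820454-41820703, minus strand): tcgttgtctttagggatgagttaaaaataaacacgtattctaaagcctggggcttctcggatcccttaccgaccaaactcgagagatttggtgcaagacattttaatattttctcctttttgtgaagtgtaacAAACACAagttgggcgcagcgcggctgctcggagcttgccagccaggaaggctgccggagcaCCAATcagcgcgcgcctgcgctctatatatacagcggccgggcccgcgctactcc
H1f4 (chr17:41914175-41914424, plus strand): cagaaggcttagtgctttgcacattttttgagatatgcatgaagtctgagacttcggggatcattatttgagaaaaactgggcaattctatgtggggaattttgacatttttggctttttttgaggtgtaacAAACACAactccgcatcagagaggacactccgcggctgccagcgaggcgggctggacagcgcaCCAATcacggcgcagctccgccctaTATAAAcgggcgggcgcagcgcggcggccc
H2ac20 (chr2:186469227-186469476, minus strand): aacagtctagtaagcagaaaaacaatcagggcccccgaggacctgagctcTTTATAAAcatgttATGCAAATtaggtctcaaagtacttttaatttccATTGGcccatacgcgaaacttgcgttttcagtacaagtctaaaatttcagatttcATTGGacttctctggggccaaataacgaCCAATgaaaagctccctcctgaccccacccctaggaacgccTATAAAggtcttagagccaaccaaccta
Hist2h2aa2 (chr2:186490765-186491014, minus strand): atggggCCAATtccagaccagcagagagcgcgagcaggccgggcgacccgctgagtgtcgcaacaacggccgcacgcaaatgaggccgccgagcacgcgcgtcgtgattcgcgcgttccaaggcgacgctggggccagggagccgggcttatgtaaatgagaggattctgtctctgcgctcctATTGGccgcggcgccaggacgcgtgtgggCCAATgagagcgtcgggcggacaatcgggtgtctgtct
H3f3b (chr10:101757637-101757886, minus strand): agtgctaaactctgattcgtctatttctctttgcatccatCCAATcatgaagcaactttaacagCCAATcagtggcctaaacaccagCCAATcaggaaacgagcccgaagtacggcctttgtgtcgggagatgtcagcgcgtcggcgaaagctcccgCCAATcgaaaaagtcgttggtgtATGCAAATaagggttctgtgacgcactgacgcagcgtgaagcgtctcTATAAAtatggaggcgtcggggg

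The window of Hist2h2be (chr2:186469202-186469451, plus strand) shares 225 of its 250 bases with that of H2ac20, read from the other strand, and the windows of the testis genes H2bc1 and H2ac1 share 239 in the same way. A match in shared bases counts once for each gene below, so the 27 windows are not 27 separate sequences. The CCAAT letters were in the windows of 26 of the 27 symbols, against 34% of all 33469 RefSeq windows of this length. TATAAA was in 17 of them, against 12.9% of all windows. The H1 box letters were in 9 and the octamer letters in 8, against 6.08% and 1.56%. TTTCGCGC was in 3 windows, against 0.248%, and TTTGGCGC was in none, against 0.412%. Counted from the annotated start, the H1 box began at position -117 in H1f2 and at -118 in H1f4. CCAAT began at -55 in both. H1f4 held TATAAA, while H1f2 did not hold these exact letters but held tatatata, which the search did not count. These matches describe letters and say nothing of what binds there.

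Doxorubicin against PBS compares the histone genes with the drug and without it. No harvest time was recorded for the con cells, so a difference in time cannot be told apart from the drug. The linker histone gene H1f2 and the core H2A genes Hist2h2aa2 and H2ac20 rose, as did H3f3b, which encodes the replacement histone H3.3. The core genes Hist2h2be and Hist1h2af, the H2A.X gene H2ax and the H2A.Z genes H2az1 and H2az2 fell. Hist2h2be passed the filter only through the con libraries and H2ac20 only through libraries with doxorubicin, so the difference of each is tied to the filter, and the call of Hist2h2be was lost with a pseudocount of 0.1. With limma on log2(FPKM + 1) over all tested entries, with 0.05 as the threshold of the Benjamini-Hochberg adjusted p, 10 of the 15 histone entries were called, 5 higher and 5 lower. Of all 11288 tested entries 38.9% were called, 24.8% higher and 14.1% lower. In a bulk sample, fewer cells that make an mRNA and less of it per cell cannot be told apart. Markers of other cell states moved in the same comparison. Of the 8 listed myoblast and myotube genes, 6 were tested and 3 were lower (Myog, Acta1 and Myh3), and the list summed to 31.4 to 32.2 FPKM in DOX, against 138 to 148 FPKM in con. Myog, a factor of muscle differentiation, averaged 2.38 ± 0.2003 FPKM in DOX and 93.9 ± 4.03 FPKM in con (SD, n = 3 each), while Myod1 was not called. Of the 8 cardiomyocyte genes, 3 were tested, with Tnnt2 lower and Nkx2-5 higher, and the list summed to 84.5 to 100.9 FPKM in DOX, against 205 to 223 FPKM in con. The collagen genes Col1a1, Col1a2 and Col3a1 were the 3 tested of 6 fibroblast genes and all were lower, with list sums of 2305 to 2711 FPKM in DOX, against 4643 to 4830 FPKM in con. Dcn, Lum and Pdgfra of that list were at or near 0. Of 4 listed endothelial genes, 3 had an entry, and these summed to at most 0.204 FPKM in any library. The part of these markers in the histone results was not tested.

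**Figure D1:**
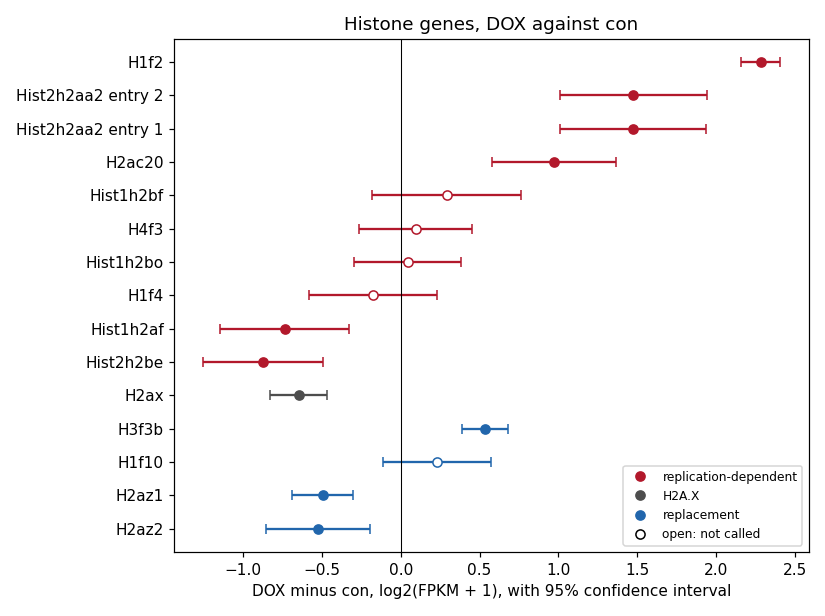
Difference between DOX and con of each tested histone entry, in log2(FPKM + 1), with its 95% confidence interval from limma; filled points were called, open points were not. H1f2 lies farthest to the right at 2.28 and Hist2h2be farthest to the left at -0.88, both of the replication-dependent class.

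H1f2 encodes a linker histone, H1.2, of the replication-dependent cluster. Its level was 136, 138 and 133 FPKM in the DOX libraries, against 27.7, 27.4 and 26.4 FPKM in the con libraries. Every DOX library was far above every con library, and the libraries within each group lay close together. The mean was 136 ± 2.42 FPKM in DOX and 27.1 ± 0.680 FPKM in con (SD, n = 3 each), a ratio of 5.01. The difference was 2.28 ± 0.06 on the log2(FPKM + 1) scale (SE; limma, Benjamini-Hochberg adjusted p = 1.20e-11). H1f4, which encodes the linker histone H1.4, had 2.02, 1.82 and 2.00 FPKM in DOX against 2.17, 3.20 and 1.77 FPKM in con. Its groups overlapped, and its difference of -0.18 was not called (limma, Benjamini-Hochberg adjusted p = 0.497, 95% confidence interval -0.58 to 0.23).

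Hist2h2aa2 encodes a core H2A histone and has 2 entries under that symbol. Both match the same RefSeq gene, so their reads may not be separate. Entry 1 had 22.3, 20.1 and 21.7 FPKM in DOX, against 6.55, 7.86 and 6.81 FPKM in con. Entry 2 had 18.7, 16.8 and 18.1 FPKM in DOX, against 5.15, 6.88 and 5.45 FPKM in con. All DOX libraries were above all con libraries in both, with ratios of means of 3.02 and 3.07. The log2 differences were 1.47 ± 0.21 and 1.48 ± 0.22 (SE; limma, Benjamini-Hochberg adjusted p = 1.07e-04 and 1.10e-04). The 2 entries count as 2 of the 4 replication-dependent entries that rose, although they may measure 1 set of reads.

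H2ac20 (an H2A gene) and Hist2h2be (an H2B gene) are the divergent pair whose upstream windows overlap. H2ac20 had 2.35, 1.85 and 1.63 FPKM in DOX, against 0.694, 0.526 and 0.284 FPKM in con. Hist2h2be went the other way, with 0.496, 0.397 and 0.405 FPKM in DOX, against 1.61, 1.39 and 1.90 FPKM in con. Neither gene's groups overlapped. H2ac20 differed by 0.97 ± 0.18 and Hist2h2be by -0.88 ± 0.18 on the log2 scale (SE; limma, Benjamini-Hochberg adjusted p = 7.96e-04 and 0.00135). Both are low genes, and their ratios of means were 3.88 and 0.265. Hist2h2be reached 1 FPKM only in the 3 con libraries, so it passed the filter only through the group in which it was high, and H2ac20 reached it in no con library. With a pseudocount of 0.1 the fall of Hist2h2be was not called (limma, Benjamini-Hochberg adjusted p = 0.0523).

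Hist1h2af, another core H2A gene, had 1.12, 0.432 and 0.795 FPKM in DOX, against 2.04, 1.97 and 1.81 FPKM in con. The DOX libraries lay below all con libraries but spread widely, and the difference was -0.74 ± 0.19 (SE; limma, Benjamini-Hochberg adjusted p = 0.00737). The remaining replication-dependent entries, H4f3, Hist1h2bf and Hist1h2bo, did not pass 2.53 FPKM in any library, overlapped between DOX and con, and were not called. H4f3 had 1.27, 2.53 and 1.94 FPKM in DOX, against 1.59, 1.57 and 1.92 FPKM in con. RefSeq lists Hist1h1d, a linker histone name, as a synonym of H4f3, so the family of that entry is uncertain. Hist1h2bf reached 1 FPKM in exactly 3 libraries and so stood, with Hist2h2be, just inside the filter.

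Among the replacement genes, H3f3b was the most abundant histone entry in every library. It had 445, 415 and 373 FPKM in DOX, against 276, 291 and 281 FPKM in con. All DOX libraries were higher, with a ratio of means of 1.45 and a log2 difference of 0.54 ± 0.07 (SE; limma, Benjamini-Hochberg adjusted p = 3.06e-05). H2az1, which encodes the main form of H2A.Z, had 146, 128 and 120 FPKM in DOX, against 179.6, 195 and 181 FPKM in con. H2az2, for the second form of H2A.Z, had 11.7, 11.7 and 11.2 FPKM in DOX, against 16.8, 18.6 and 15.9 FPKM in con. Both H2A.Z genes were lower in every DOX library than in any con library. Their log2 differences were -0.50 ± 0.09 for H2az1 and -0.53 ± 0.15 for H2az2 (SE; limma, Benjamini-Hochberg adjusted p = 5.85e-04 and 0.0143). Without con replicate 2 the call of H2az2 was lost (adjusted p = 0.0567).

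H1f10, which encodes the replacement linker histone H1.10, had 7.27, 6.93 and 8.76 FPKM in DOX, against 6.05, 6.86 and 6.18 FPKM in con. The groups did not overlap, but the nearest libraries differed by less than the spread within either group, and the difference of 0.23 was not called (limma, Benjamini-Hochberg adjusted p = 0.285). With DSI+DOX replicate 3 left out of the fit, the same difference was called (adjusted p = 0.0267). H2ax had 21.8, 22.3 and 23.0 FPKM in DOX, against 35.3, 36.9 and 34.7 FPKM in con. The groups were far apart, with a ratio of means of 0.628 and a log2 difference of -0.65 ± 0.08 (SE; limma, Benjamini-Hochberg adjusted p = 3.74e-05).

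**Figure D2:**
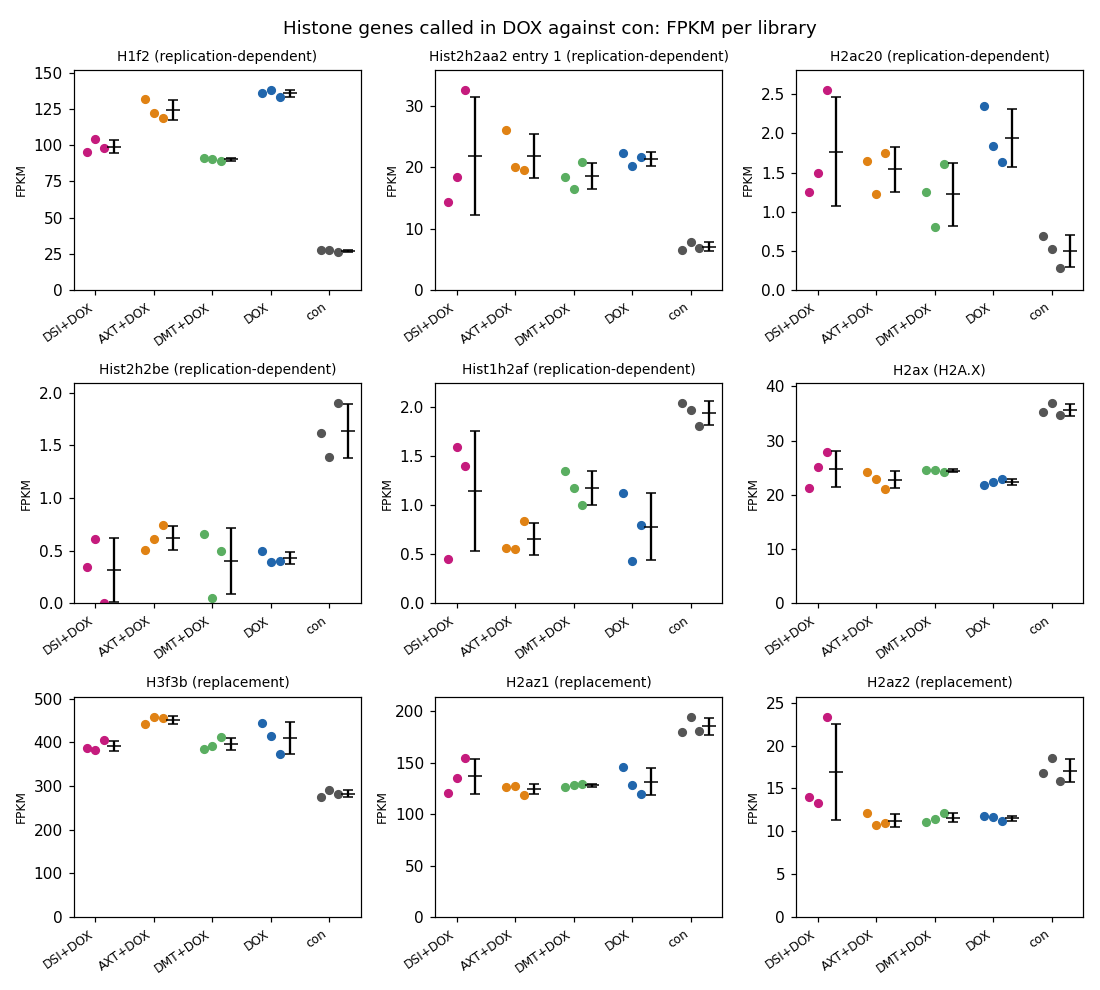
FPKM of 9 histone entries called in DOX against con, 1 panel each, with 3 points per group for the libraries and a bar for the mean ± SD; the vertical axes start at 0 and differ between panels. H1f2 lies at 89.4 to 138 FPKM in the groups with doxorubicin and at 26.4 to 27.7 FPKM in con, and DSI+DOX replicate 3 is the highest point for Hist2h2aa2, H2ac20 and H2az2.

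As classes, the replication-dependent entries had 4 higher and 2 lower of 10, where 24.8% and 14.1% of all entries were higher and lower, so the count of lower entries is near the background. Their median log2 difference was 0.19, with single entries between -0.88 and 2.28. That median was 0.059 without DOX replicate 2, 0.35 without DOX replicate 1 and 0.42 with a pseudocount of 0.1. With the filter at 5 FPKM only H1f2 and the 2 Hist2h2aa2 entries were left in the class. The median was then 1.48, the value of Hist2h2aa2 entry 2. The replacement entries had 1 higher and 2 lower of 4, with a median of -0.13. The median over all tested entries was 0.05. These are descriptions of the entries that passed the filter, since a gene that is high in 1 group only can pass through that group. Summed over entries, the replication-dependent class stood at 184 ± 1.82 FPKM in DOX and 49.8 ± 2.96 FPKM in con (SD, n = 3 each). Most of that gap was H1f2: without it the sums were 48.3 ± 1.56 FPKM in DOX and 22.7 ± 2.78 FPKM in con. The class sums, and the shares below, count both Hist2h2aa2 entries, which may be 1 set of reads. Those entries averaged 21.4 and 17.9 FPKM in DOX, against 7.07 and 5.83 FPKM in con. Apart from H1f2, no other entry of the class averaged above 2.38 FPKM in DOX or con. The replacement class summed to 562 ± 48.8 FPKM in DOX and 491 ± 17.1 FPKM in con. Of the FPKM of the 28 entries under the symbol patterns, replication-dependent entries made up 24.0 ± 1.34% in DOX and 8.62 ± 0.214% in con. H1f2 alone made up 17.7 ± 1.02% in DOX and 4.70 ± 0.189% in con. Histone variants named outside the patterns are in neither the sums nor the shares. Among them, H2aj averaged 59.5 FPKM in DOX and 41.0 FPKM in con.

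**Figure D3:**
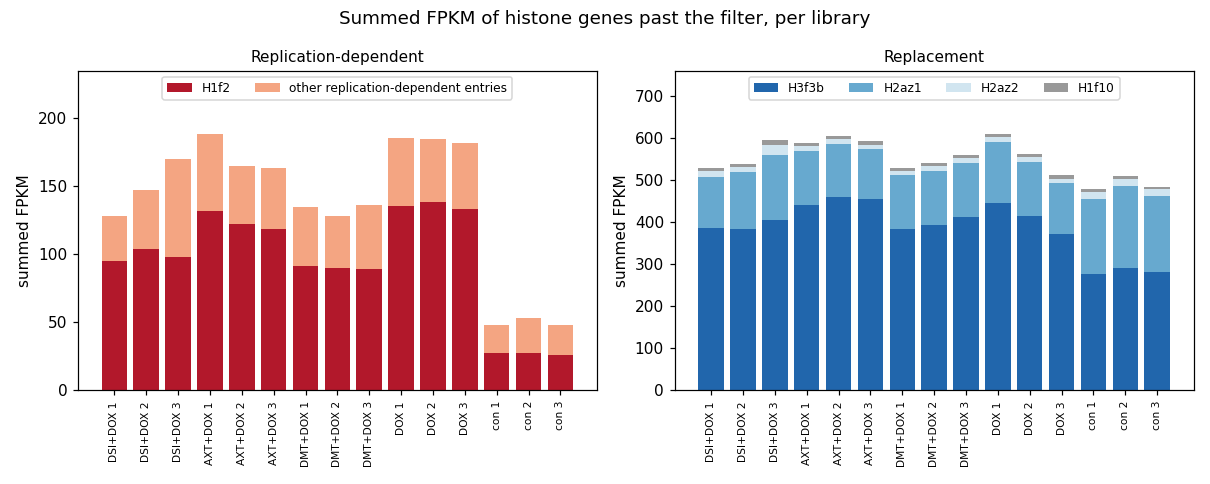
Summed FPKM of the tested replication-dependent entries (left, H1f2 and the rest) and replacement entries (right, by gene) in each of the 15 libraries, with bars starting at 0. Both Hist2h2aa2 entries are counted on the left. The replication-dependent sum is 128 to 188 FPKM in the groups with doxorubicin and 47.9 to 53.2 FPKM in con, while the replacement sum lies between 478 and 610 FPKM in all libraries.

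Genes of S phase, when new histones are needed, fell almost throughout. Of 34 listed S phase genes, all tested, 32 were called lower and 1 higher in DOX than in con, where 14.1% and 24.8% of all entries were, with a median log2 difference of -1.03. Mcm6, a subunit of the replicative helicase, averaged 10.8 ± 0.706 FPKM in DOX and 43.0 ± 0.550 FPKM in con. Ccna2, the gene of cyclin A, averaged 5.12 ± 0.282 FPKM in DOX and 20.7 ± 0.315 FPKM in con (SD, n = 3 each). Their log2 differences were -1.90 ± 0.07 and -1.82 ± 0.15 (SE; limma, Benjamini-Hochberg adjusted p = 5.23e-10 and 6.95e-07). The member called higher was Gins2, of the GINS complex of the replication fork, with a difference of 0.44 ± 0.08. H1f2 and Hist2h2aa2 were higher in the same DOX libraries.

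Histone chaperones carry histones to chromatin and away from it. Of 33 listed, 32 were tested, 17 were called lower and 1 higher, where 14.1% and 24.8% of all entries were, with a median log2 difference of -0.33. Asf1b, a chaperone of H3 and H4 used in dividing cells, had 4.24 to 5.65 FPKM in DOX, against 14.5 to 15.9 FPKM in con, a log2 difference of -1.40 ± 0.09 (SE; limma, Benjamini-Hochberg adjusted p = 7.49e-08). Nasp, which holds the cell's reserve of H3 and H4 and also binds H1, differed by -1.21 ± 0.12. Chaf1a and Chaf1b, subunits of the CAF-1 complex that deposits H3 and H4 behind the fork, differed by -0.80 ± 0.10 and -1.17 ± 0.11. Cenpa, the centromeric H3 variant, and its chaperone Hjurp differed by -1.005 ± 0.09 and -0.98 ± 0.13. For H2A.Z, the removal factor Anp32e differed by -0.58 ± 0.11, and the deposition factor Vps72 was the member called higher, by 0.39 ± 0.09. Hira, which places H3.3 outside replication, averaged 4.98 ± 0.594 FPKM in DOX and 6.10 ± 0.661 FPKM in con and was not called (limma, Benjamini-Hochberg adjusted p = 0.126). Without DSI+DOX replicate 3 in the fit Hira was called lower (adjusted p = 0.0360), with 23 chaperone genes lower and 4 higher, where 23.8% and 33.2% of all entries were in that fit.

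Of 18 listed factors for histone gene transcription and for the 3′ end of histone mRNA, 15 were tested, 4 were called lower and 3 higher, where 14.1% and 24.8% of all entries were, so the counts are near the background. The list had a median log2 difference of -0.11. Slbp, which encodes the stem-loop binding protein, averaged 25.5 ± 2.66 FPKM in DOX and 38.0 ± 2.04 FPKM in con (SD, n = 3 each), a log2 difference of -0.56 ± 0.10 (SE; limma, Benjamini-Hochberg adjusted p = 4.83e-04). Casp8ap2, a factor of the histone locus body, differed by -0.56 ± 0.15, Cstf2, a cleavage factor, by -0.37 ± 0.08 and Lsm11 of the U7 particle by -0.34 ± 0.10. Lsm10, the partner of Lsm11 in that particle, was higher by 0.63 ± 0.14. Sympk and Cpsf3, shared with the cleavage of other mRNAs, were higher by 0.28 ± 0.08 and 0.18 ± 0.06. Npat, which activates replication-dependent histone genes, averaged 5.12 ± 0.165 FPKM in DOX and 7.37 ± 0.358 FPKM in con and was not called (limma, Benjamini-Hochberg adjusted p = 0.0728). With DSI+DOX replicate 3 left out of the fit Npat was called lower by the same difference of -0.45 (adjusted p = 5.03e-04), and the list had 6 lower and 4 higher, where 23.8% and 33.2% of all entries were in that fit.

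Around H2A.X, 2 of 10 listed genes were called higher and 2 lower, where 24.8% and 14.1% of all entries were, so the counts are near the background. The list had a median log2 difference of -0.04. Ppm1d, which encodes the WIP1 phosphatase that removes the phosphate of H2A.X, had 11.4 to 11.6 FPKM in DOX, against 6.05 to 6.44 FPKM in con, a difference of 0.79 ± 0.08 (SE; limma, Benjamini-Hochberg adjusted p = 2.31e-06). Wrap53, whose product is drawn to DNA breaks and also serves telomerase, was higher by 0.61 ± 0.12. The kinase genes Atm and Prkdc, whose products phosphorylate H2A.X, differed by -0.86 ± 0.18 and -0.44 ± 0.17. Among p53 targets, Cdkn1a (p21) was higher by 1.38 ± 0.06 and Mdm2 by 1.84 ± 0.09 in the same comparison.

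**Figure D4:**
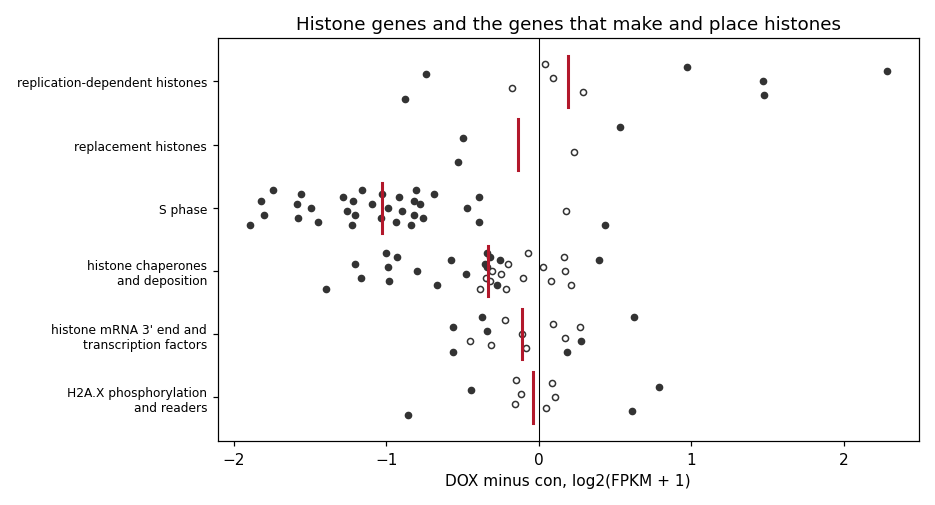
DOX minus con in log2(FPKM + 1) of each tested gene, by list; filled points were called, open points were not, and the red bar is the median of the list. The S phase genes lie to the left with a median of -1.03, while the replication-dependent histone entries spread from -0.88 to 2.28.

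Danshen injection before doxorubicin was compared with doxorubicin alone, and the comparisons of the other additions use the same DOX libraries, so they are not independent. H1f2 had 95.2, 104 and 97.9 FPKM in DSI+DOX, against 136, 138 and 133 FPKM in DOX. Every DSI+DOX library was below every DOX library and above every con library. The difference was -0.45 ± 0.06 (SE; limma, Benjamini-Hochberg adjusted p = 4.07e-04), a ratio of means of 0.729. H1f2 was the only histone entry called of 15, where 7.88% of all entries were called, 1.47% higher and 6.41% lower, so the count itself is near the background. The call depended on the scaling: with libraries brought to a common median, which moved the median difference of all entries from -0.11 to 0.03, the difference of H1f2 was -0.29 (adjusted p = 0.0662). It was also lost in a fit of only the DSI+DOX and DOX libraries (adjusted p = 0.133), and it held without DSI+DOX replicate 3 (-0.45, adjusted p = 1.49e-04).

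H2az2 had 14.01, 13.3 and 23.4 FPKM in DSI+DOX, against 11.7, 11.7 and 11.2 FPKM in DOX. The groups did not overlap, but replicate 3, the library that stands apart, was far above the others, and the difference of 0.47 ± 0.15 was not called (SE; limma, Benjamini-Hochberg adjusted p = 0.0731). Without that library it was 0.23 (adjusted p = 0.0602). Hist2h2aa2 entry 1 had 14.3, 18.4 and 32.6 FPKM in DSI+DOX, a range that covers all 3 DOX values. Without replicate 3 its difference was -0.37 (adjusted p = 0.0773), against -0.05 with it (adjusted p = 0.887).

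Astaxanthin before doxorubicin left H1f2 close to its level with doxorubicin alone. Its level was 132, 122 and 119 FPKM in AXT+DOX, against 136, 138 and 133 FPKM in DOX. All AXT+DOX libraries were lower, by a small margin, with a difference of -0.13 ± 0.06 and a 95% confidence interval from -0.25 to -0.01 that was not called after adjustment (SE; limma, Benjamini-Hochberg adjusted p = 0.575). No histone entry was called in this comparison, where 0.691% of all entries were called, 0.0709% higher and 0.62% lower, and H1f2 was the only entry of 15 with an unadjusted limma p under 0.05. H3f3b had 442, 459 and 455 FPKM in AXT+DOX, which overlapped with DOX, and differed by 0.14 (interval -0.01 to 0.29).

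With diosmetin before doxorubicin H1f2 was lower again than with doxorubicin alone; the additions were not tested against each other. The level was 91.3, 90.3 and 89.4 FPKM in DMT+DOX, against 136, 138 and 133 FPKM in DOX. The libraries of each group lay within a few FPKM of each other and far from the other group. The difference was -0.58 ± 0.06 (SE; limma, Benjamini-Hochberg adjusted p = 2.64e-05), a ratio of means of 0.665. H1f2 was again the only histone entry called of 15, where 10.5% of all entries were called, 2.93% higher and 7.53% lower, so here too the count is no more than the background. H2ac20 had 1.25, 0.807 and 1.61 FPKM in DMT+DOX, below the 3 DOX libraries, with a difference of -0.42 ± 0.18 that was not called (adjusted p = 0.190). H2ax had 24.6, 24.6 and 24.2 FPKM in DMT+DOX, above the 3 DOX libraries, with a difference of 0.12 (adjusted p = 0.449).

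**Figure D5:**
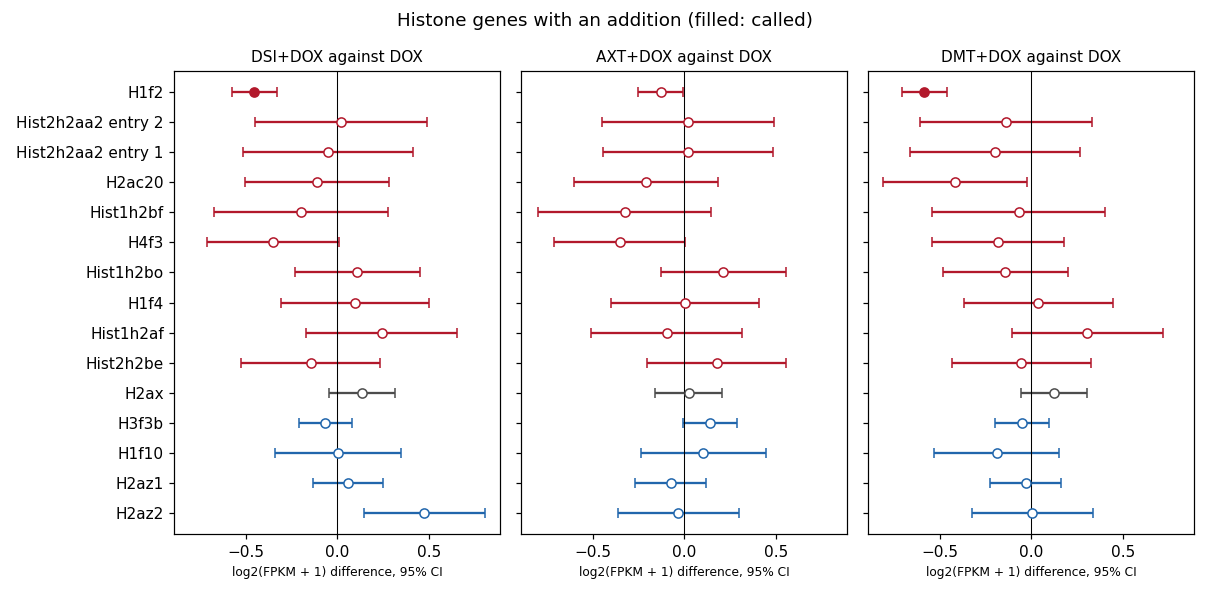
Differences of DSI+DOX, AXT+DOX and DMT+DOX from DOX for each tested histone entry, in log2(FPKM + 1) with 95% confidence intervals from limma; filled points were called. H1f2 is the filled point at -0.45 with danshen injection and at -0.58 with diosmetin, and the open point at -0.13 with astaxanthin.

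S phase genes had 4 of 34 called lower in DSI+DOX than in DOX, where 6.41% of all entries were lower. In AXT+DOX 2 of 34 were lower, where 0.62% were, and in DMT+DOX 8 of 34, where 7.53% were; none was higher with any of the additions. Cdt1, which licenses replication origins, differed by -0.63 ± 0.11 in DSI+DOX and by -0.76 ± 0.11 in DMT+DOX, and Mcm7 of the replicative helicase by -0.28, -0.34 and -0.56 in DSI+DOX, AXT+DOX and DMT+DOX. Among chaperones, Set, an H3 and H4 chaperone, and Ruvbl2, an ATPase of complexes that place H2A.Z, were lower in DMT+DOX than in DOX, by -0.39 ± 0.09 and -0.41 ± 0.12. With the other additions no chaperone gene was called in the fit of all libraries. Without DSI+DOX replicate 3, Ruvbl2 and Ssrp1, a subunit of the FACT complex that handles H2A and H2B, were called lower in DSI+DOX, by -0.22 and -0.17 (limma, Benjamini-Hochberg adjusted p = 0.0414 and 0.0463). Ruvbl2 was then also called lower in AXT+DOX, by -0.34 (adjusted p = 0.00653), and 5 chaperone genes were lower and 1 higher in DMT+DOX. Ppm1d was lower by -0.55 ± 0.08 in DSI+DOX and by -0.43 ± 0.08 in DMT+DOX, and Mdm2 by -0.53 ± 0.09 and -0.37 ± 0.09. A link between these genes and H1f2 was not tested. Cdkn1a was not called with any addition. Of the 3′ end list, the cap-binding gene Ncbp3 was lower in DSI+DOX by -0.43 ± 0.10 and the cleavage factor gene Cstf2 higher in DMT+DOX by 0.26 ± 0.08. With DSI+DOX replicate 3 left out, which narrows the spread shared by all comparisons, 6 S phase genes were called lower in DSI+DOX, 5 in AXT+DOX and 13 in DMT+DOX, and 1 was higher in DMT+DOX. In that fit 9.09%, 2.32% and 17.2% of all entries were lower in these groups, and 7.83% were higher in DMT+DOX. Without it the differences of Ppm1d, Mdm2 and Cdt1 in DSI+DOX were -0.51, -0.40 and -0.76, all called. The listed genes were not refitted with another scaling, and median scaling removed the call of H1f2 in DSI+DOX against DOX. The myoblast and myotube markers summed to 41.5 to 45.4 FPKM in DSI+DOX, 25.9 to 30.3 FPKM in AXT+DOX and 49.98 to 51.7 FPKM in DMT+DOX, against 31.4 to 32.2 FPKM in DOX; their part in these results was not tested.

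Against con, histone entries stood on both sides in every group with an addition; these comparisons share the con libraries with each other and with DOX against con. DSI+DOX had 5 entries higher and 3 lower of 15, where 20.5% and 21.3% of all entries were higher and lower (41.8% in all). Without DSI+DOX replicate 3, 5 entries were lower, where 19% of all entries were lower in that fit. AXT+DOX had 5 higher and 5 lower, where 22.7% and 12.8% were (35.5% in all), and DMT+DOX 5 higher and 4 lower, where 15.5% and 10.7% were (26.2% in all). In each of these groups Hist2h2be was among the lower entries and H2ac20 among the higher. Hist2h2be reached 1 FPKM only in con and H2ac20 only with doxorubicin, so both calls are tied to the filter. The 2 Hist2h2aa2 entries, which may be 1 set of reads, were among the higher. H1f2 was above con by 1.83 in DSI+DOX, 2.15 in AXT+DOX and 1.70 in DMT+DOX (SE 0.06 each; limma, Benjamini-Hochberg adjusted p = 3.54e-10, 2.57e-11 and 4.21e-10). H2ax was below con in these groups, with differences of -0.51, -0.62 and -0.52. H3f3b was above con by 0.47, 0.68 and 0.49. The replication-dependent share of histone FPKM was 20.4 ± 1.30% in DSI+DOX, 21.8 ± 1.497% in AXT+DOX, 19.0 ± 0.548% in DMT+DOX, 24.0 ± 1.34% in DOX and 8.62 ± 0.214% in con (SD, n = 3 each). These shares are of the 28 entries under the symbol patterns and count both Hist2h2aa2 entries.

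The 13 entries below the filter did not reach 1 FPKM in any library. They were the replication-dependent H1f1, H1f5, Hist3h2ba, H2ac21, Hist1h2ak, H2bc12, H2bc9 and Hist1h2bd, the testis histones H2bc1, H2ac1 and H1f6, and the replacement genes H1f8, of the oocyte linker histone, and H2afb3. The highest single value among them was 0.595 FPKM, for Hist3h2ba, and the highest value of H1f1 was 0.00848 FPKM. In all, 8 of 18 replication-dependent entries and 2 of 6 replacement entries were below the filter.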

How the data were processed

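RNA was extracted with TRIzol and libraries were made with an NEBNext Ultra kit, per the labels' protocols; whether counting used strand is not stated. The authors deposited 1 FPKM column per library, and FPKM were used as deposited. Per the submitters' processing notes, the tools were Trimmomatic, HISAT2 and featureCounts and the build Rnor_6.0; neither versions nor the step that made FPKM are stated there. Low values gave no steps of whole reads (of 1050 low genes compared between con replicates, 0.667% shared a ratio), so depth is unknown. After removal of 16 exact duplicates, the 11288 entries at 1 FPKM or more in at least 3 of 15 libraries were fitted as log2(FPKM + 1) with limma 3.58.1 in R 4.3.3 (a mean per group over all 15 libraries, empirical Bayes with an intensity trend, two-sided, Benjamini-Hochberg over all tested entries). The scale understates changes of low genes. Differences are between means of logs, so ratios of mean FPKM can differ from them. The fit was tested on simulated data. Overlapping, antisense and near-identical genes share reads that cannot be told apart. Every histone entry past the filter could be named. The histone genes, their classes and the lists were chosen with earlier results of these data known. Alternatives were another pseudocount, other filters, 2 other scalings, a fit of only the groups compared, no trend, a replicate block and each library left out; refitting the lists without DSI+DOX replicate 3 was added after the data were seen. Motif letters were counted in RefSeq windows of build GRCr8. Python 3.11.15 with matplotlib 3.10.9 drew the figures.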

Additional observations from a re-analysis of the deposited data

How the results depend on the processing

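The 105 gene results (15 entries in 7 comparisons), each taken under the alternatives that apply to it, gave 1496 values. Many of these values share a fit. Of them, 1466 kept their side of the threshold, 19 lost the call and 11 gained it. Of results called in either fit, 0 reversed direction. Direction was not compared where neither fit was called, and some of those results changed sign. H4f3 in DOX against con, for example, ranged from -0.06 to 0.26. With a pseudocount of 0.1 the median of the replication-dependent entries in DOX against con was 0.42. With the filter at 5 FPKM it was 1.48, with only H1f2 and the 2 Hist2h2aa2 entries left in the class. At that filter 3 histone entries were lower in DOX and 3 in AXT+DOX than in con, since fewer low entries were tested. With median scaling, and in a fit of only the groups compared, 0 entries were lower in DSI+DOX than in DOX; the cause was not tested. Leaving out 1 library at a time, that median ranged from 0.059 (without DOX replicate 2) to 0.35 (without DOX replicate 1) and the median of the replacement entries from -0.16 to -0.09. Entries called in DOX against con ranged from 5 to 6 higher and from 4 to 5 lower. In DSI+DOX against DOX they ranged from 0 to 3 higher (H2ax, Hist1h2af and H2az2 without replicate 1 of DSI+DOX, H2az2 without replicate 2), with 1 lower throughout. In DSI+DOX against con, 3 to 5 were lower. In AXT+DOX against con 5 to 6 were higher, and in DMT+DOX against con 4 to 5 were higher and 3 to 4 lower. The share of all entries called is not given here for each refit. These counts are therefore not set against a background. H2ac20 and H2az2 were the entries whose calls in DMT+DOX against con were lost most often. Scaling changed the balance over all entries: 63.8% of calls in DOX against con were higher, against 50.4% with median scaling and 51.6% with quantile normalization. The same shares were 18.7%, 54.2% and 46.6% for DSI+DOX against DOX, 28%, 51% and 44.4% for DMT+DOX against DOX, and 63.9%, 50.9% and 51.5% for AXT+DOX against con. With the replicate block, DOX against con still gave 5 higher and 5 lower, the medians stayed at 0.19 and -0.13, and 0 of 105 gene results changed their call. Libraries with the same number deviated together in only 8 of 30 pairs (correlation over 0.1, range -0.54 to 0.52). All 3 pairs passed that only between DSI+DOX and DMT+DOX (0.238, 0.337 and 0.517), which were not compared here, so the numbers were not taken to pair the groups compared.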

Other observations

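A few histone variant genes carry names outside the symbol patterns and were looked at after their values were seen. H2aj, which encodes the H2A.J variant, averaged 59.5 ± 1.65 FPKM in DOX and 41.0 ± 4.25 FPKM in con (SD, n = 3 each). All DOX libraries were higher, and the log2 difference of 0.53 ± 0.22 was not called (SE; limma, Benjamini-Hochberg adjusted p = 0.0734); without DSI+DOX replicate 3 in the fit it was called (adjusted p = 3.16e-04). H2aj reached 125 FPKM in 1 DSI+DOX library, replicate 3, the library that stands apart. Macroh2a1, which encodes the large variant macroH2A1, was lower in DSI+DOX than in DOX by -0.24 ± 0.06 and in DMT+DOX by -0.29 ± 0.06 (SE; limma, Benjamini-Hochberg adjusted p = 0.0311 and 0.00910). The first was -0.29 without DSI+DOX replicate 3 (adjusted p = 0.00351). Neither difference was refitted with another scaling. The median difference of all entries was -0.11 in DSI+DOX against DOX and -0.04 in DMT+DOX against DOX. Its difference of 0.11 between DOX and con was not called. Macroh2a2 averaged 10.7 ± 0.370 FPKM in DOX and 10.2 ± 0.204 FPKM in con and was not called, and H2bu1 did not pass 0.0831 FPKM in any library.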
